A study of Mus musculus with 11 samples.

Results

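Large intergenic non-coding RNAs (lincRNAs) are transcripts from the stretches between protein-coding genes that do not encode a protein. Several of them act in chromatin regulation, in the silencing of imprinted genes or of an X chromosome, or as scaffolds of nuclear bodies, and many are made in a cell-type-restricted way, in pluripotent cells and in the nervous system in particular. They are usually less abundant than messenger RNAs, and most are known only as a genome interval with transcription on a given strand.

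The lincRNA class of the array was examined here. Its members are the non-control probes whose name starts with A_30_P and whose target is written as a genome interval in place of a named gene. There were 16194 such probes among the 55681 non-control probes of the array. They covered 4610 loci, a locus being an interval together with its strand, among 37890 targets of all kinds. Another 57 probes with the same prefix target 12 named RNAs and were left out. The intervals are given on the mouse build mm9, and the letter after each interval in the design was read as the forward or the reverse strand. For 13 probes of 3 loci no strand was given. No annotation of that build was used here, so whether a locus lies in or near a gene is not stated, and no probe sequence is shown. A probe of this class may therefore read the RNA of a known gene, coding or not. The loci named below were not checked for this.

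The arrays held RNA of 3 kinds of mouse samples. The ES group was undifferentiated embryonic stem cells at passage 13, kept with LIF and without feeder cells, with 1 array of line G4-2 (ES1) and 1 of line D3 (ES2), so that each line is 1 sample. The CSE group was the cochlear sensory epithelium of ICR pups at postnatal day 1, each preparation pooled from 20 cochleae (3 arrays), and it contains hair cells, supporting cells and whatever other cells came along in the dissection. The OS group was secondary solid otospheres, floating spheres grown from dissociated epithelium of the same kind of pups, passaged 1 time and cultured for 4 to 5 days per round with basic fibroblast growth factor and IGF1 (6 arrays). The labels name no other allele or agent in any group. OS1 and OS2 differed by less than the noise between repeated spots of an array (ratio 0.947, and 1.19 over lincRNA probes alone), as did OS4 and OS5 (ratio 0.421), whereas the other 17 pairs of arrays within groups differed 1.80 to 3.40 times more than that noise. Each of those pairs was therefore averaged and counted as 1 sample, which left 4 OS, 3 CSE and 2 ES samples. Nothing says that the remaining samples came from separate litters or cultures, so that the p-values measure the spread between these samples, which may be in part technical.

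The labels were checked against marker genes. The mean log2 signal of 4 embryonic stem cell markers was 12.8 to 13.7 in ES, 6.47 to 7.14 in OS and 6.71 to 6.83 in CSE. That of 7 cochlear epithelium markers was 8.42 to 8.57, 9.78 to 11.4 and 13.1 to 13.3 in the same order. Markers of other cell types also moved between OS and CSE. The 5 measured erythroid markers averaged 5.39 to 5.76 in OS and 11.7 to 12.5 in CSE, with 4 lower in OS, and Hbb-bt and Alas2 were well above background on no OS array. The 5 macrophage markers averaged 6.85 to 7.04 and 9.15 to 9.44, with all 5 lower in OS and C1qa on no OS array. The 5 neuron markers averaged 7.33 to 8.54 and 11.8 to 13.04, with 4 lower in OS. The 6 hair cell markers averaged 7.30 to 9.25 and 10.3 to 10.6, with 4 lower in OS. Of 5 endothelial markers, 2 were lower in OS, and of 5 Schwann cell markers 2 were lower and 1 was higher. Their part in the lincRNA differences between OS and CSE was not tested. In such bulk samples fewer cells of a type and less RNA per cell cannot be told apart.

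Most lincRNA loci gave a signal in these cells, but fewer lincRNA probes than other probes did. A probe was counted as detected on an array when the scanner software flagged it as well above background. On the ES arrays 48.8% (ES1) and 35.8% (ES2) of the lincRNA probes were detected. On the OS arrays the shares were 45.8%, 50.5% and 40.5% for OS1 to OS3, and 53.8%, 52.3% and 45.9% for OS4 to OS6. On the CSE arrays they were 51.8%, 58.8% and 39.3%. The 3 groups overlapped, and ES2 and CSE3 were the lowest arrays. The same arrays detected 61.5 to 75.8% of all other probes, so that the lincRNA share was lower on each of the 11 arrays, by 17.0 to 27.8 percentage points.

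**Figure D1:**
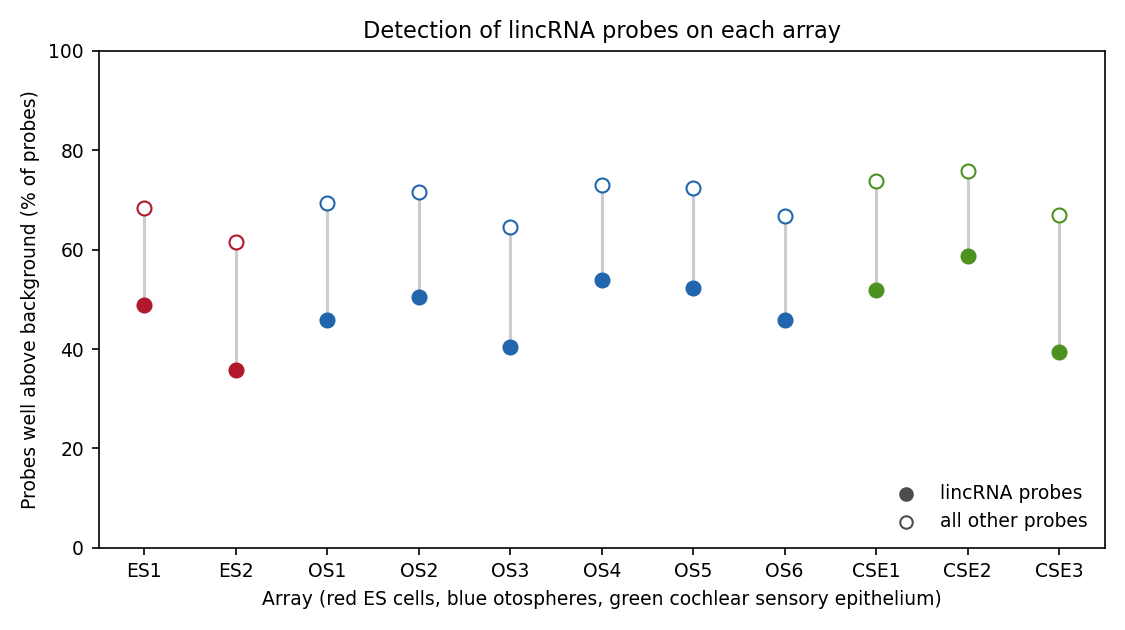
Share of lincRNA probes (filled points) and of all other probes (open points) flagged well above background, in percent of probes, on each of the 11 arrays, coloured by group. The lincRNA share lies below the share of other probes on each array, and the groups overlap.

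Over samples, the share of lincRNA probes detected was 42.3% ± 9.18 in ES (SD, n = 2), 46.9% ± 5.23 in OS (SD, n = 4) and 50.0% ± 9.91 in CSE (SD, n = 3). OS differed from CSE by -3.10 percentage points (two-sided exact permutation test, p = 0.657, smallest possible 0.0286). OS differed from ES by 4.57 points (exact permutation p = 0.533, smallest possible 0.0667), and CSE from ES by 7.67 points (exact permutation p = 0.40, smallest possible 0.10). The comparisons with ES could not have reached a p of 0.05, so a difference there was not detectable with these samples, whereas that of OS with CSE could have and did not pass. The direction for OS against CSE turned when the share of other probes was subtracted (0.53 points).

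Of the 16194 lincRNA probes, 4149 (25.6%) were detected on all arrays, 7586 (46.8%) on some and 4459 (27.5%) on none. Among the other 39487 probes the corresponding shares were 52.9%, 31.1% and 16%. By locus, 2359 of 4610 (51.2%) had a probe detected on all arrays, and 411 (8.92%) had no probe detected on any array. Forward and reverse probes were detected on all arrays at the same share, 25.6% each. Detection was lowest in the shortest intervals, taken as the first of 4 bins of about equal numbers of loci. The intervals ran from 62 to 7128487 bases with a median of 10676, and in the first bin, up to 1758 bases, 21.4% of probes were detected on all arrays, against 26.2%, 27.3% and 26.1% in the longer bins.

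Some lincRNA probes were seen in 1 or 2 groups alone, as judged by detection on every array of a group and on no array of the rest. There were 140 such probes of 92 loci for ES (0.865% of the class, and 0.729% of other probes) and 246 of 163 loci for OS together with CSE (1.52% and 1.91%). Probes seen on all OS arrays and nowhere else were few, 10 of 8 loci (0.0618% and 0.132%). There were 35 for CSE alone (0.216% and 0.593%), 8 for ES with CSE (0.0494% and 0.203%) and 4 for ES with OS (0.0247% and 0.0608%). A group of 2 arrays meets this criterion more easily than a group of 6, so the counts are not comparable between groups.

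The level of each probe was next compared between groups, on the normalised log2 scale. The 13129 lincRNA probes that rose above the negative control spots on at least 2 arrays (4391 loci) were kept, among 47996 kept probes in all, and 3065 lincRNA probes were too dim. A probe was called at an adjusted p under 0.05, adjusted over all kept probes (limma, Benjamini-Hochberg). Over the 3 groups, 1952 lincRNA probes of 1026 loci passed the F-test, which is 14.9% of those kept, while 33.7% of all kept probes passed. A lower share was called in the lincRNA class also among probes detected on a similar number of arrays, which does not match them for signal level. Among probes detected on all 11 arrays, 20.4% of 4149 lincRNA probes and 48.3% of 20896 other probes were called. Among those detected on 6 to 10 arrays the shares were 19.2% and 42.6%, and on 1 to 5 arrays 11.2% and 24.4%. Among kept probes detected on no array the shares were close, 0.585% of 1710 lincRNA probes and 0.722% of 2079 others.

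The differences themselves were also smaller in this class, in a comparison not matched for signal level. The lincRNA spots were dim, at a median signal of 44 to 65 against a local background of 32 to 38. An offset of 16, added before taking logs, shrinks the log2 differences of dim probes, and its part here was not tested. Between OS and CSE, 90% of the kept lincRNA probes lay between the 5th and 95th percentiles of -0.58 and 0.61 on the log2 scale, and 90% of the other probes between -1.46 and 1.24. Between OS and ES the corresponding ranges were -1.32 to 1.21 and -2.14 to 2.35. The spread within groups was similar, with a median SD of 0.22, 0.24 and 0.25 in ES, OS and CSE for lincRNA probes and 0.26, 0.28 and 0.25 for others. The lincRNA medians were close to 0, at 0.04 for OS minus CSE, -0.04 for OS minus ES and -0.09 for CSE minus ES, and those of all kept probes were 0.02, -0.03 and -0.06. Over the lincRNA probes, pairs of OS arrays, those averaged above included, correlated at a mean r of 0.954, pairs of CSE arrays at 0.927 (0.895 to 0.974) and the 2 ES arrays at 0.914. OS with CSE arrays correlated at 0.922, about as high as CSE arrays with each other, while ES correlated with OS at 0.820 and with CSE at 0.811. That closeness did not hold over the other probes. There OS with CSE arrays correlated at 0.938, below CSE arrays with each other (0.981) and OS arrays with each other (0.978). These correlations are across probes, which are not independent replicates.

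Between OS and CSE, 196 lincRNA probes of 106 loci were higher in OS (1.49% of those kept, and 4.84% of all kept probes) and 247 of 127 loci were lower (1.88%, and 6.19% of all). Among them 148 and 164 differed over 2-fold, and the median absolute difference of the called probes was 1.5 and 1.16 on the log2 scale. The comparison asks what distinguishes the cultured spheres from the tissue they were grown from. Within slide 1 alone 64 were higher and 53 lower, within slide 2 alone 175 and 122, and with slide as a block 204 and 273. Without CSE1 there were 92 higher and 119 lower, without CSE3 110 and 132, and without the averaged OS4 and OS5 106 and 141.

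**Figure D2:**
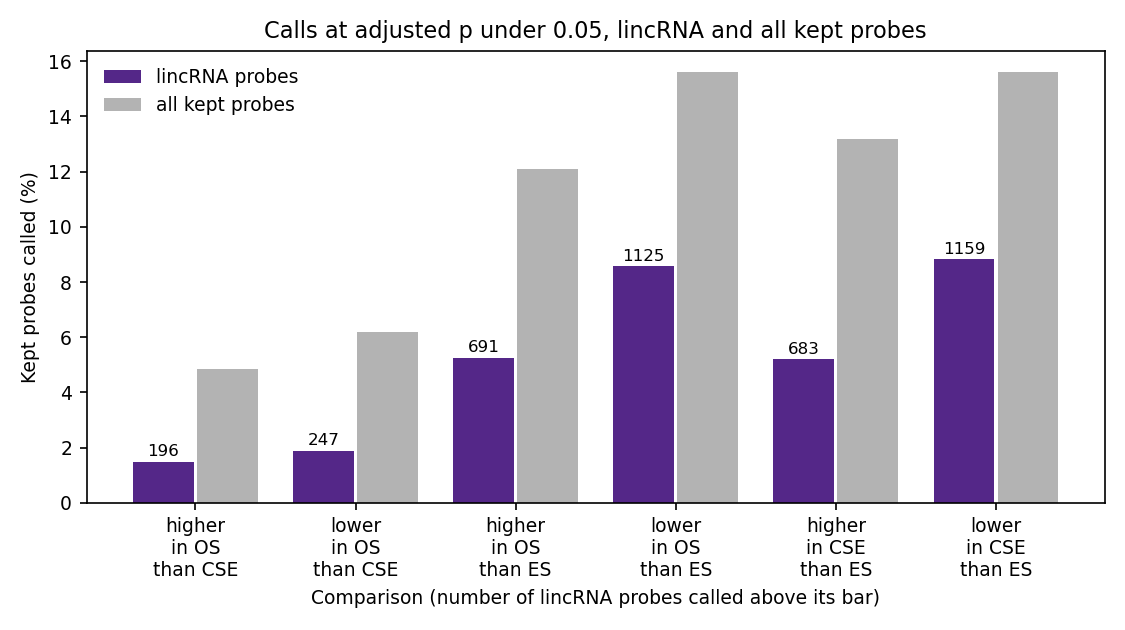
Percent of kept lincRNA probes (purple) and of all kept probes (grey) called at an adjusted p under 0.05 in each direction of each comparison, with the number of lincRNA probes called above its bar. The lincRNA share is lower in all 6 cases, and the comparisons with ES cells hold the most calls.

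The largest rise in OS over CSE was on the reverse strand of chr19:53517903-53540753 (probe A_30_P01029324). Its log2 signal was 10.20, 9.48, 10.68 and 10.77 in the 4 OS samples (OS1 with OS2, OS3, OS4 with OS5, OS6), 5.57, 5.52 and 5.35 in CSE, and 5.35 and 6.004 in ES. All OS samples were high and all others were low, with ES and CSE overlapping each other. That OS and CSE did not overlap was part of the rule for naming loci. OS exceeded CSE by 4.80 ± 0.32 (SE, n = 4 and 3, limma adjusted p = 8.23e-05), which is 27.9-fold, and ES by 4.60 (24.3-fold, adjusted p = 4.16e-05). Of the 10 kept probes of the locus 5 were called higher in OS than CSE and none lower, with differences from -0.16 to 4.80, so the probes along this interval did not move alike.

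Next came overlapping loci on the forward strand of chromosome 6. The probe A_30_P01031155 of chr6:31170350-31287353 had log2 signals of 11.15, 11.53, 12.09 and 12.26 in OS, 7.54, 7.26 and 8.14 in CSE and 5.03 and 5.81 in ES. The 3 groups were separate, in the order OS, CSE, ES. OS was 17.2-fold above CSE (log2 difference 4.11 ± 0.34 SE, limma adjusted p = 0.000207), and all 3 probes of the locus were higher in OS, by 3.41 to 4.11. No ES array detected it, so that OS was at least 75-fold and CSE at least 4.35-fold above ES. The nested interval chr6:31233512-31241062, also forward, was 15.1-fold higher in OS than in CSE (3.91 ± 0.27 SE, limma adjusted p = 9.35e-05, probe A_30_P01022038), with 2 of 2 probes called.

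These loci stood in a run. Within the 1 Mb from 31000001 to 32000000 of chromosome 6, a window chosen after its values were seen, 19 of 43 kept lincRNA probes passed the F-test. They were of 8 loci out of 15, and 17 of the 19 best matched a binary pattern high in OS alone. In the whole class 14.9% of kept probes passed, and 33.7% of all kept probes. Several of the loci overlap on the same strand and may read the same RNA. On the forward strand chr6:31267612-31293337 had 4 of 4 probes higher in OS than in CSE, by 1.25 to 2.63. On the reverse strand chr6:31007184-31007725 had 2 of 3 (1.36 to 2.45), chr6:31078802-31079644 had 1 of 3 (1.43 to 3.15) and chr6:31115515-31168433 had 1 of 3 (2.32 to 2.70). The forward and the reverse strand did not go together throughout. None of the 3 reverse probes of chr6:31267612-31293337 was called between OS and CSE, and 1 of them was lower in OS than in ES.

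A second group lay on the reverse strand of chromosome 1. At chr1:175705225-175717250 (probe A_30_P01024163) the OS samples were at 10.55, 10.49, 10.54 and 10.06, the CSE samples at 7.45, 6.58 and 6.94, and the ES lines at 4.89 and 6.91. OS was above every other sample, while ES2 lay within the CSE range. The difference of OS from CSE was 3.42 ± 0.43 (SE, limma adjusted p = 0.00152), and 5 of 5 probes were called higher, by 1.98 to 3.42. At chr1:175654606-175672031 on the same strand (probe A_30_P01017895) 5 of 5 probes were called higher too, by 1.5 to 2.75. Its signals were 8.65, 8.92, 8.40 and 7.77 in OS and 6.03, 5.43 and 5.60 in CSE (6.71-fold, limma adjusted p = 0.000708).

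The remaining loci named for a rise in OS were more variable between otosphere samples. At chr17:56687541-56694616, reverse strand (probe A_30_P01026224), the OS signals were 10.35 and 9.62 for the slide 1 samples and 11.80 and 12.50 for the slide 2 samples, against 7.85, 7.99 and 8.03 in CSE. The difference was 3.11 ± 0.62 (SE, 8.63-fold, limma adjusted p = 0.0128), and 5 of 5 probes were called. Without CSE1 or without CSE3 the adjusted p rose to 0.057 and 0.0502. At chr9:78107225-78118850, forward strand (probe A_30_P01028766), OS was at 11.69, 9.86, 10.02 and 11.68 and CSE at 7.84, 7.12 and 7.61 (9.78-fold, limma adjusted p = 0.00323, and 0.0781 and 0.0764 within slide 1 and slide 2 alone). There 2 of 5 probes were called, and the median difference over the 5 was 0.15, so the rise was in part of the interval.

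The largest fall in OS against CSE was on the forward strand of chr19:60220577-60238494 (probe A_30_P01023295). The CSE samples were at 9.92, 9.40 and 10.17, the OS samples at 6.66, 7.30, 6.89 and 6.41, and the ES lines at 4.89 and 5.10. The groups were separate, with OS between the tissue and the ES cells. OS was below CSE by a log2 difference of -3.02 ± 0.26 (SE, 8.10-fold, limma adjusted p = 0.000239), and 3 of 3 probes fell, by -3.02 to -2.71. No ES array detected the probe, which put CSE at least 21.7-fold and OS at least 2.68-fold above ES.

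All 5 probes also fell at 2 further loci. At chr3:21964899-21974524, reverse strand (probe A_30_P01022266), CSE was at 11.70, 11.22 and 11.62, OS at 9.29, 9.02, 9.60 and 8.81, and ES at 8.21 and 7.80. The otospheres were close to each other here and differed from CSE by -2.33 ± 0.23 (SE, 5.03-fold, limma adjusted p = 0.000491). At chr1:94608820-94634671, reverse strand (probe A_30_P01023609), CSE was at 10.08, 9.64 and 11.14 and OS at 6.86, 5.94, 7.97 and 8.57. The OS samples spread over more than 2 log2 units, and the difference was -2.95 ± 0.61 (SE, 7.74-fold, limma adjusted p = 0.0153). Its adjusted p was 0.0532 without CSE1 and 0.07 without CSE3.

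The other falls in OS were less uniform along their intervals. On the reverse strand of chr2:94082835-94101939 (probe A_30_P01020369) OS was at 4.91, 4.73, 5.06 and 5.14, with 1 of 6 OS arrays detecting it, while CSE was at 7.82, 6.89 and 8.43 and ES at 6.72 and 7.76. The probe was low in otospheres alone (OS minus CSE -2.75, limma adjusted p = 0.0021, and OS minus ES -2.28, limma adjusted p = 0.00365), and of the 5 probes of the interval 3 fell against CSE and 2 against ES. On the reverse strand of chr1:42689799-42749799 (probe A_30_P01031206) CSE was at 14.01, 13.44 and 14.45, OS at 12.29, 12.40, 11.50 and 9.81 and ES at 5.92 and 5.23. OS was 5.53-fold below CSE (limma adjusted p = 0.0298), with 3 of 6 probes called, and the call was lost when any of the CSE samples or the averaged OS4 and OS5 were left out and with the scaled processed signal or within either slide alone, with the adjusted p up to 0.119. At chr8:89996710-90049453, forward strand (probe A_30_P01024770), CSE was at 9.86, 9.85 and 11.04, ES at 11.03 and 11.23, and OS at 7.57, 6.21, 8.45 and 9.06. OS was 5.38-fold below CSE (limma adjusted p = 0.0386, and from 0.0526 to 0.151 when any sample other than OS3 or OS6 was left out) and 9.90-fold below ES (limma adjusted p = 0.00749).

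**Figure D3:**
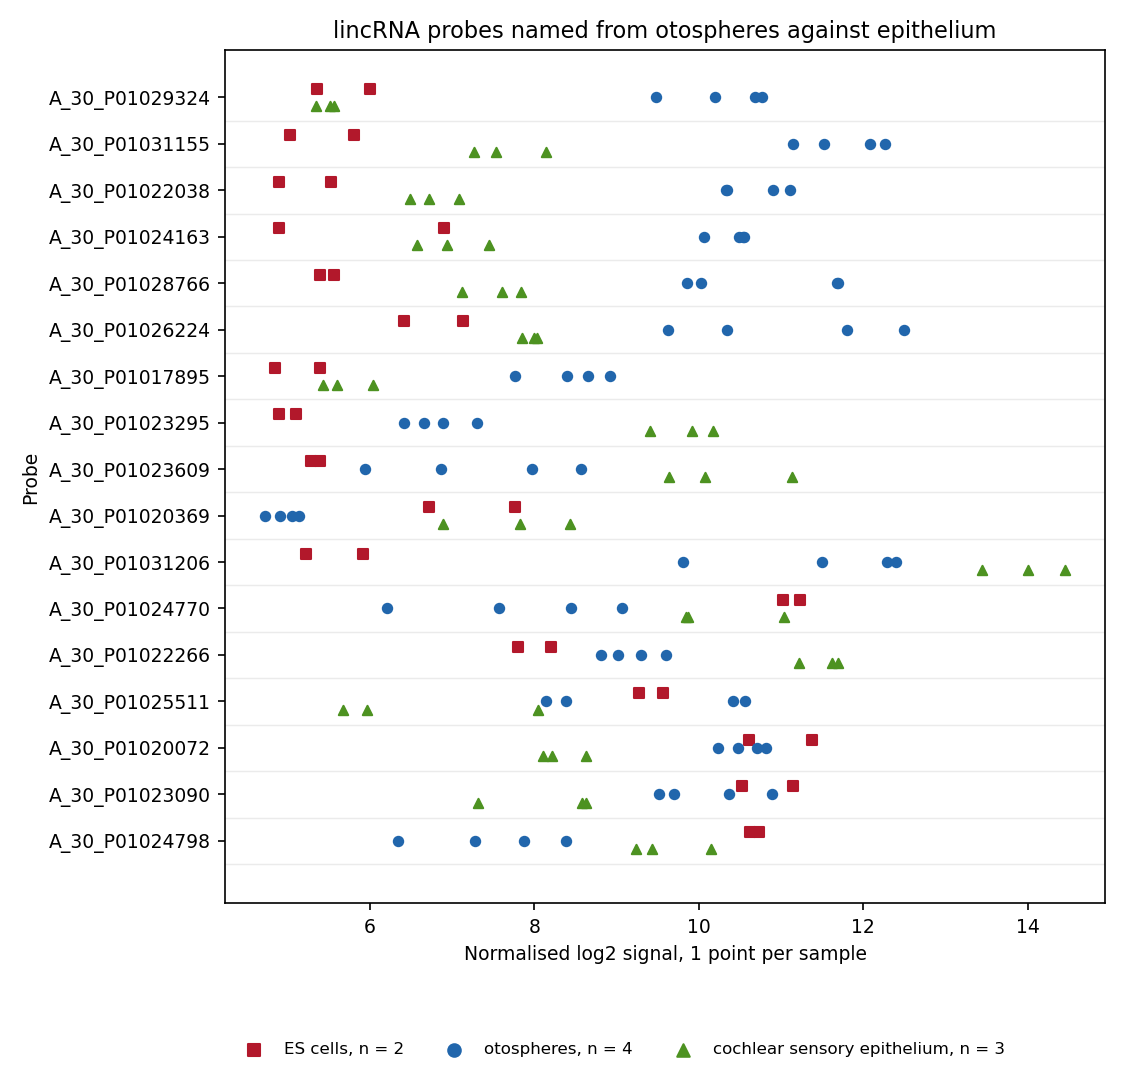
Normalised log2 signal of the 17 lincRNA probes named from OS against CSE and from the patterns, 1 point per sample (2 ES, 4 OS, 3 CSE). The first 7 probes are highest in otospheres and the next 6 are lower in otospheres than in CSE. The last 4 are those of the patterns that pair ES cells with otospheres or with CSE, where not already shown.

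Loci high in both ES and OS bear on the question of what the spheres share with pluripotent cells. Of the 13129 kept lincRNA probes, 38 of 17 loci had this pattern (0.289%, and 1.12% of all kept probes), meaning that the F-test was passed, this binary template correlated best with the group means, and the lowest high group was over 2-fold above the highest low group. The clearest was the reverse strand of chr7:128341797-128414692 (probe A_30_P01020072), with ES at 11.38 and 10.61, OS at 10.81, 10.71, 10.48 and 10.24, and CSE at 8.63, 8.11 and 8.22. All 5 of its probes were higher in OS than in CSE (1.67 to 2.24), all 5 were lower in CSE than in ES, and none was called between OS and ES. For the probe, OS exceeded CSE 4.73-fold (limma adjusted p = 0.000714) and differed from ES by -0.44 ± 0.27 (SE, limma adjusted p = 0.288). At chr14:26973425-26986650, forward strand (probe A_30_P01023090), 3 of 3 probes were higher in OS than in CSE, 3.86-fold for the probe named (limma adjusted p = 0.0202). On the forward strand of chr4:149445201-149445902 (probe A_30_P01025511) the OS samples split into 8.38 and 8.14 against 10.56 and 10.42, CSE2 stood at 8.05 above CSE1 and CSE3 at 5.96 and 5.67, and the adjusted p (limma) of OS against CSE was 0.0473.

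The opposite pattern, high in ES and CSE and low in OS, was held by 23 probes of 17 loci (0.175%, and 0.998% of all). Its leading loci were the chr2 and chr8 intervals above and chr8:90048940-90049461, which lies at the end of the longer chr8 interval on the same strand. There (probe A_30_P01024798) OS was at 7.28, 6.34, 7.88 and 8.39, CSE at 9.43, 9.24 and 10.15 and ES at 10.73 and 10.62, and 3 of 3 probes were lower in OS than in CSE and in ES. The other patterns held more probes. They were ES high with 653 probes of 359 loci (4.97%, and 9.67% of all), OS high with 127 of 59 loci (0.967%, and 2.36%) and CSE high with 123 of 67 loci (0.937%, and 3.12%). OS and CSE high together held 298 probes of 145 loci (2.27%, and 6.55%).

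The comparisons with ES cells moved more loci. Between OS and ES, 691 lincRNA probes of 340 loci were higher in OS (5.26% of those kept, and 12.1% of all) and 1125 of 654 loci were lower (8.57%, and 15.6% of all). Between CSE and ES, 683 of 342 loci were higher in CSE (5.20%, and 13.2% of all) and 1159 of 668 loci were lower (8.83%, and 15.6% of all). These comparisons share the 2 ES samples. Lower calls outnumbered higher ones in the lincRNA class in both. Without ES1 the number higher in OS than in ES fell to 437.

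The largest rises of OS over ES lay together on the forward strand of chromosome 16. The probe A_30_P01022305 of chr16:43623581-43642715 was at 12.63, 13.85, 13.98 and 13.35 in OS, 12.31, 13.64 and 12.71 in CSE, and 5.13 and 5.57 in ES. The OS and CSE samples overlapped and lay far above both ES lines, in which the probe was not well above background. OS was at least 264-fold above ES (limma adjusted p = 6.76e-06) and CSE at least 179-fold (limma adjusted p = 1.37e-05), with measured log2 differences of 8.10 and 7.54. All 10 probes of the locus were called in both comparisons and none between OS and CSE. The adjoining chr16:43623175-43624069, which overlaps it on the same strand, had 3 of 3 probes higher by 7.76 to 8 in OS and by 7.38 to 7.60 in CSE.

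At chr19:23064968-23069896 on the forward strand (probe A_30_P01029943) CSE was at 13.31, 14.15 and 13.25, OS at 11.45, 12.12, 12.45 and 11.76, and ES at 4.70 and 4.85, where no array detected it. CSE was at least 290-fold (limma adjusted p = 1.17e-06) and OS at least 94.0-fold above ES (limma adjusted p = 2.68e-06). The 3 groups were separate, and OS lay below CSE by a log2 difference of -1.63 ± 0.30 (SE, limma adjusted p = 0.00867). The reverse strand of chr1:42689799-42749799 showed the same order with a second probe, A_30_P01030648, at 14.84, 14.27 and 15.01 in CSE, 13.15, 13.08, 12.38 and 10.35 in OS and 5.72 and 5.30 in ES. The measured signal was 587-fold that of ES in CSE (limma adjusted p = 4.87e-05) and 106-fold in OS (limma adjusted p = 0.000187). Since 1 of the 2 ES arrays did not detect the probe, these folds rest on a level near background, and 3 of the 6 probes carried the calls. At chr12:74135916-74142780, reverse strand (probe A_30_P01030618), 5 of 5 probes were higher in both, with CSE at least 70.1-fold and OS at least 30.5-fold above ES. On the forward strand of chr17:26911397-26917047 (probe A_30_P01022537) 10 of 10 probes were higher in OS than in ES, by a median of 1.80, and 3 of 10 were in CSE. The ES lines were at 8.07 and 9.93 there, further apart than the OS or the CSE samples.

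**Figure D4:**
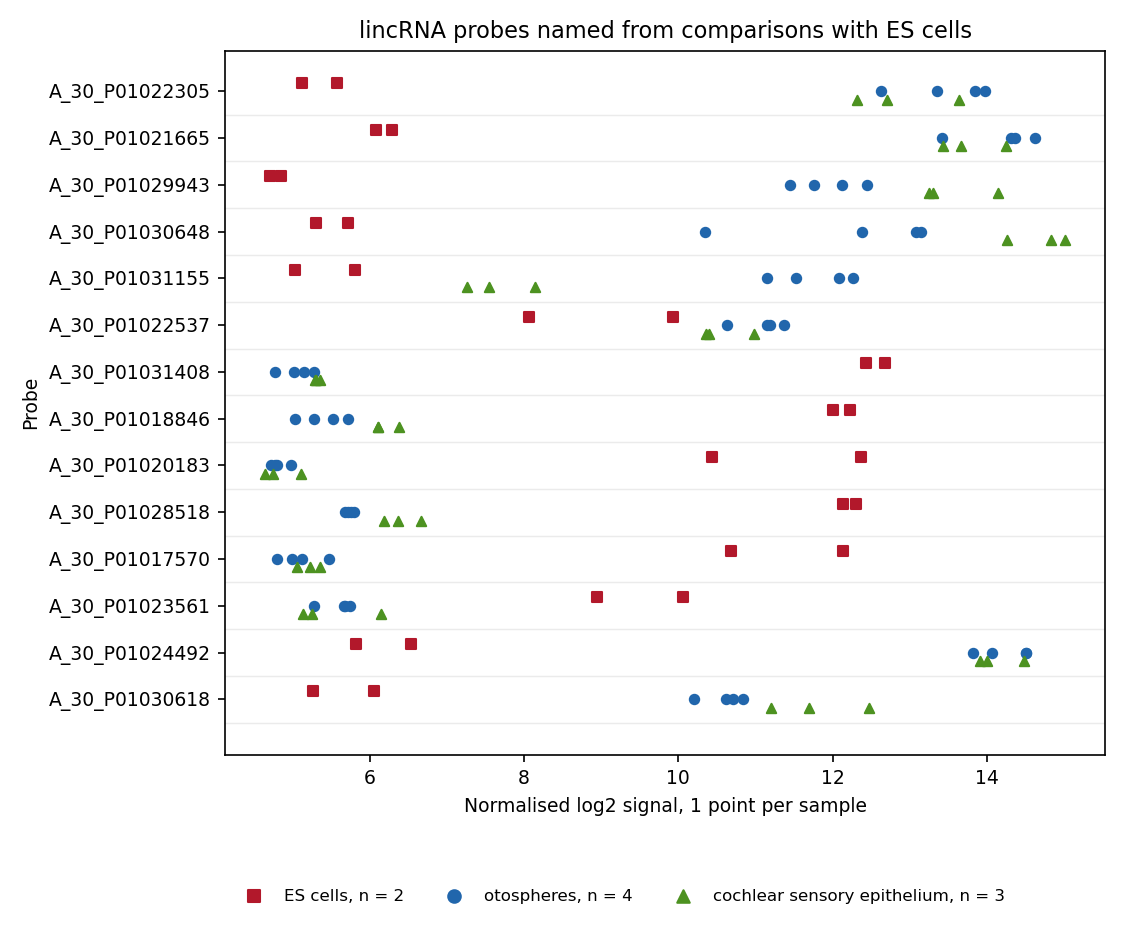
Normalised log2 signal of the 14 lincRNA probes named from the comparisons with ES cells, 1 point per sample (2 ES, 4 OS, 3 CSE). Where the ES cells are low, OS and CSE lie together or in the order ES, OS, CSE, except at A_30_P01031155, where OS is highest. Where the ES cells are high, OS and CSE are near the bottom of the scale.

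The loci highest in ES were near background in the cochlear samples. The leading probe was A_30_P01031408, the single probe on the reverse strand of chr8:67552315-67561235. It was at 12.44 and 12.68 in ES, at 5.02, 5.28, 5.14 and 4.77 in OS, where no array detected it, and at 5.29, 5.35 and 5.30 in CSE, where 1 of 3 arrays did. ES was at least 168-fold above OS (limma adjusted p = 1.01e-07) and 152-fold above CSE (limma adjusted p = 1.99e-07). On the reverse strand of chr3:75451370-75459674 (probe A_30_P01020183) ES1 was at 10.43 and ES2 at 12.37, while OS and CSE were detected on no array. ES was at least 84.3-fold above OS and at least 81.7-fold above CSE (limma adjusted p = 1.9e-05 and 2.5e-05), and 4 of 4 probes were called. The forward strand of chr11:97457180-97487074 (probe A_30_P01017570) was also seen in ES alone, at 10.69 and 12.14. All 7 of its probes were called, and ES was at least 73.6-fold above each of the other groups (limma adjusted p = 8.34e-06 for OS and 1.29e-05 for CSE).

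The reverse strand of chr9:114412295-114418384 (probe A_30_P01028518) was at 12.14 and 12.30 in ES, 5.72, 5.68, 5.79 and 5.75 in OS and 6.37, 6.18 and 6.66 in CSE. Low as it was in the cochlear samples, it was lower in OS than in CSE by -0.67 ± 0.16 (SE, limma adjusted p = 0.0281), and 2 of its 3 probes were called so. The measured signal of ES was 89.8-fold that of OS, where 2 of 6 arrays detected the probe, and 56.6-fold that of CSE, where all 3 did. The interval chr9:114416254-114416844, nested in it on the same strand (probe A_30_P01018846), fell from ES to OS by -6.73 and from ES to CSE by -5.92. At chr9:75316023-75344401, forward strand (probe A_30_P01023561), 10 of 10 probes were lower in OS and in CSE than in ES, and none was called between OS and CSE. The probe was at 10.06 and 8.94 in ES and at most 5.74 in OS and 6.15 in CSE.

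Neighbouring ES-high loci were looked for in the same way, again in windows chosen after their values were seen. In the 1 Mb from 39000001 to 40000000 of chromosome 17, 16 of 20 kept lincRNA probes passed the F-test and all 16 were highest in ES. They belonged to 5 loci, of which several overlap and may read the same RNA, and both strands were included. All 4 forward and all 5 reverse probes of chr17:39960567-39992817 were lower in OS than in ES (-1.61 to -0.98 and -2.30 to -1.64) and in CSE than in ES (-2.04 to -1.12 and -2.86 to -2.09). In the 1 Mb from 110000001 of chromosome 12, 18 of 92 kept lincRNA probes passed, at 7 of 23 loci, and 15 of them had ES high as their best template. In the whole class 14.9% passed, and 33.7% of all kept probes. The fall was largest on the forward strand of chr12:110944403-110988678, where 3 of 10 probes were called in OS and 4 of 10 in CSE, by up to -3.14 and -3.03. Within that interval the nested forward locus chr12:110973190-110987668 had 3 of 3 probes called in both.

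The several probes of a locus allowed its calls to be checked within the array. A locus held 1 to 10 probes with a median of 3, and 2508 had at least 3 kept probes on the same strand. All of these probes were called higher in OS than in CSE at 19 loci and lower at 24. For OS against ES there were 62 and 66 such loci, and for CSE against ES 69 and 66. Among 105 loci with at least 2 probes called between OS and CSE, 1 had calls in both directions, the reverse strand of chr10:83181374-83249774, with differences from -1.71 to 1.12. Of the 429 and 436 loci with at least 2 calls against ES in OS and in CSE, 14 and 13 were mixed. The probes of a locus were read from the same RNA samples, so they are not replicates of a condition. Whether they share a transcript was not checked. The interval numbers also overstate the number of transcripts, because 2104 of the 4610 loci overlap another on the same strand and merging overlaps leaves 3365.

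Probes on the same strand moved together more than probes on opposite strands. The first 2 kept probes of each locus had differences between OS and ES that correlated at r = 0.751 over 3445 loci, and the first forward and the first reverse probe of each interval at r = 0.236 over 1009 intervals. For OS minus CSE the values were 0.676 and 0.138, and for CSE minus ES 0.744 and 0.231. These are descriptions across loci that share the same samples. The 2 sets are not of the same intervals, since the same-strand pairs also include intervals probed on 1 strand. Those were not set apart. Of the 1009 intervals with kept probes on both strands, 147 had a probe past the F-test on the forward strand only, 209 on the reverse strand only and 100 on both, and in 74 of those 100 a pattern was shared. In terms of detection, of 1067 intervals probed on both strands, 432 had a probe detected on all arrays on each strand, 238 on the forward strand only, 213 on the reverse strand only and 184 on neither.

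**Figure D5:**
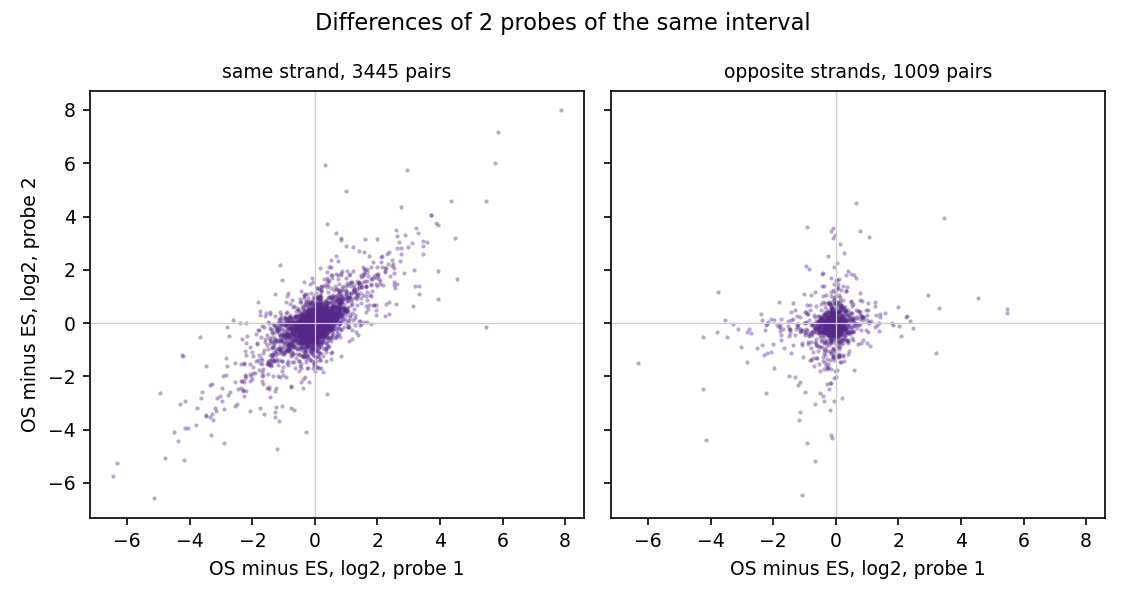
OS minus ES difference (log2) of 1 probe against another of the same interval, for 3445 pairs on the same strand (left) and 1009 pairs on opposite strands (right). Same-strand pairs follow the diagonal (r = 0.751) and opposite-strand pairs hardly do (r = 0.236). The left panel also holds intervals probed on 1 strand.

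Along the genome the share of kept lincRNA probes past the F-test ran from 9.31% on chromosome 7 (55 of 591) on to 86 of 463 on chromosome 16, the highest share. On the X chromosome it was 17.4% (78 of 447). On chromosome 17, 66 of the 140 called probes had the ES high pattern over 2-fold, the largest number on a chromosome. Chromosome 11 (41 of 81) and chromosome 5 (47 of 96) had a larger share of that pattern. Over all chromosomes 14.9% of kept lincRNA probes and 33.7% of all kept probes passed the F-test. The ES high pattern was held by 4.97% and 9.67%. Shares of the other probes by chromosome were not taken, and several probes of a locus count separately. The shares are therefore not read as a result about a chromosome.

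Long non-coding RNAs with a name on the array were set beside the class, from a list of 50 genes of which 28 were measured, each by its brightest probe. Between OS and CSE 3 were higher (Pvt1, Mir22hg and Neat1) and 3 lower (Pantr1, Jpx and Snhg6), between OS and ES 8 were higher and 4 lower, and between CSE and ES 7 and 3. Of all kept probes, 4.84% were called higher and 6.19% lower between OS and CSE. The shares were 12.1% and 15.6% between OS and ES, and 13.2% and 15.6% between CSE and ES. With 28 genes of a chosen list, the counts are not read as a result about named RNAs. Neat1, the scaffold of nuclear paraspeckles, was at 13.7 ± 0.76 in OS (SD, n = 4), 8.41 ± 1.64 in CSE (n = 3) and 9.30 ± 2.06 in ES (n = 2), and OS exceeded CSE by 5.32 on the log2 scale (limma adjusted p = 0.00538). Pvt1, the non-coding neighbour of Myc, was at 10.4 ± 0.17 in ES, 9.75 ± 0.06 in OS and 7.39 ± 0.19 in CSE, and OS exceeded CSE by 2.36 (limma adjusted p = 7.8e-05). It was the named RNA with the smallest F-test q, and its best template was ES and OS high, although it was also lower in OS than in ES by -0.66 (limma adjusted p = 0.0203). Mir22hg, the host transcript of a microRNA, was 2.20 higher in OS than in CSE (limma adjusted p = 0.00216).

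Pantr1, a non-coding RNA of the neural lineage next to a POU-domain gene, was lower in OS than in CSE by -2.46 (limma adjusted p = 0.0335) and 9.40 higher in CSE than in ES (limma adjusted p = 4.01e-05). Only 1 ES array detected it, so the latter rests on a level near background. Both differences were close to those of A_30_P01030648 on the reverse strand of chr1:42689799-42749799 (-2.465 and 9.198). Whether the 2 probes read the same RNA was not checked, so they may not be separate results. Xist, which coats the inactive X chromosome, was well above background on no ES array and was at 12.3 ± 0.89 in OS and 12.8 ± 0.75 in CSE, which did not differ beyond their spread (-0.50, limma adjusted p = 0.701). Jpx, a gene of the X inactivation centre, was lower in OS than in CSE by -0.98 (limma adjusted p = 0.00847). Only 2 of 6 OS arrays and no ES array detected Jpx, so its difference also rests on a level near background. The imprinted Peg13 was 5.06 and 5.89 higher in OS and CSE than in ES (limma adjusted p = 8.14e-05 and 4.93e-05), and Mirg, of the imprinted Dlk1-Dio3 domain, was lower than in ES by -3.16 and -2.45 (limma adjusted p = 0.00343 and 0.0155).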

How the data were processed

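The scanner files were deposited as 1-colour Cy3 intensity values (Agilent Feature Extraction 10.7.3.1, build mm9 per the file headers), together with the software's other flags per spot. A log2 table that the authors background-corrected, quantile-normalised and filtered was also deposited and served as an alternative. The scanner's processed intensity was used for another.

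Median spot signals were background-corrected with normexp (limma 3.58.1, R 4.3.3, offset 16), put on the log2 scale and quantile-normalised over the 11 arrays. Outlier-flagged spots were dropped and spots of a probe averaged. A probe was kept if on 2 or more arrays its signal exceeded by 10% the level under which 95% of the 308 negative controls lay. The typical lincRNA spot had a median signal of 44 to 65 against a local background of 32 to 38, no spot used was saturated, and the number of arrays limits the precision. The arrays lay on 2 slides, each of which held all 3 groups. Slide 1 held ES1, OS1 to OS3, CSE1 and CSE2, and slide 2 the rest.

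Group means were fitted in 1 limma model over all kept probes, with Benjamini-Hochberg adjustment at 0.05, and the F-test was followed by assignment to 1 of 6 binary patterns. In place of a fold over a group in which no array was well above background, a bound was given. For each array of that group it takes the higher of the probe's own signal and the lowest signal of any probe well above background. A bound is written "at least". The script was tested on simulated data. Detection shares were compared by exact permutation tests.

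The loci named in the text were the 5 largest rises and falls per pair of groups among called probes whose samples did not overlap, the 2 loci per direction with the most probes (at least 3) all called, and the 3 leading loci of 3 patterns (OS alone high, OS with ES high, and CSE with ES high). Of the named RNAs up to 8 with the smallest q were described. Loci of chromosome 18 were counted and not named. Gene symbols came from unversioned RefSeq accessions, which named 26762 probes. The members, lists and rules were chosen with earlier results of these data known. Alternatives were other offsets, the other values, 3 other filters on dim probes, every array as a sample, slide as a block, each slide alone, replicate number as a block, each sample left out and the unmoderated ANOVA of the methods. The fit without the replicate block on the same arrays was added after seeing the data. The result for 1 single marker gene is not reported here.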

Additional observations from a re-analysis of the deposited data

Results flagged for a closer look

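In 2 of 33 sets of 4 otosphere samples examined, 1 sample lay far from the other 3 by Dixon's criterion, which chance alone meets in about 5% of sets. At chr9:75316023-75344401_F (A_30_P01023561) the averaged OS1 and OS2 had a log2 signal of 5.27, below 5.66 to 5.74 in the others, and at chr1:175705225-175717250_R (A_30_P01024163) OS6 was at 10.06, below 10.5 to 10.6.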

How the results depend on the processing

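Of 752 values of the named loci under alternatives, 732 kept their direction and their call, 20 kept the direction and lost the call, and 0 reversed. The named loci were chosen by their calls in the main fit of the same data, so keeping a call is in part built in. Outside the fits of a slide alone, the lost calls were all between OS and CSE. They were at chr17:56687541-56694616, chr1:42689799-42749799, chr1:94608820-94634671 and chr8:89996710-90049453. The counts of called lincRNA probes stayed within 1.5 times under both other offsets, the scaled processed signal, the authors' table, all 3 filters and slide as a block. With every array as a sample, 337 were higher and 393 lower in OS than in CSE. On slide 1 alone there were 64 higher and 53 lower in OS than CSE, 338 and 592 in OS against ES, 405 and 717 in CSE against ES, and 1011 past the F-test. On slide 2 alone 122 were lower in OS than CSE. Fewer samples enter these within-slide fits. The unmoderated ANOVA gave 1652 past its F-test. The scaled processed signal moved the median of all kept probes against ES to -0.31 in OS and -0.28 in CSE, and the lincRNA medians to -0.30 and -0.26.

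Leaving out 1 sample in turn gave 92 to 221 higher and 119 to 285 lower in OS than CSE, 437 to 764 and 860 to 1133 in OS against ES, 492 to 696 and 808 to 1185 in CSE against ES, and 1529 to 1899 past the F-test. The detection difference of OS from CSE ranged from -8.45 to 1.33 points, that of OS from ES from -1.92 to 11.06 and that of CSE from ES from 1.18 to 14.16. It reversed for OS against CSE on slide 2 alone (10.18 points) and relative to other probes (0.53), and for OS against ES on slide 1 alone (-4.48). None of these had a permutation p under 0.05, nor could most designs have given one.

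The deviations of same-numbered arrays correlated from -0.393 to 0.357. Whether equal replicate numbers mark paired samples cannot be decided from these values. Few arrays entered, and some OS arrays with different numbers differed by less than the noise between repeated spots. With the replicate block on the arrays numbered 1 to 3, 733 were lower in OS than ES, and 1066 on the same arrays without it. The cause of these changes was not tested.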
